A study of Drosophila melanogaster with 32 samples.

Results

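The genes described here are the cytochrome P450 genes of Drosophila melanogaster, read in the RNA of mated females. They were chosen by name, as the single-gene probe sets whose annotated symbol starts with Cyp followed by a digit. The pattern matched 85 of the 18769 probe sets tested. Cyp1 and Cyp40 among them encode cyclophilins, which are protein-folding enzymes and not P450s, and they were set aside. The remaining 83 probe sets stood for 81 genes in 20 P450 families, with a pair of probe sets each for Cyp18a1 and Cyp12e1. No filter on low values was applied, so all 83 were tested, and 12 of them lay among the dimmest 40% of probe sets, below a mean log2 value of 4.54.

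Cytochrome P450s are haem enzymes that insert an oxygen atom into their substrates, with electrons passed on by a reductase or, in mitochondria, by a ferredoxin. In insects some P450s make and break down hormones and cuticular hydrocarbons, and many others, chiefly of families 4, 6, 9 and 12, can act on plant toxins and insecticides in the gut, Malpighian tubules and fat body. The family number groups genes by protein similarity, and families are joined into 4 insect clans. Many genes of 1 family stand side by side on a chromosome.

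The females came from 8 laboratory populations that had all been founded from the LHM base stock and kept for 46 generations. In the monogamous populations M1 to M4 a female mated once per generation, and the promiscuous populations P1 to P4 stayed under the standard mating protocol. Each female population was crossed to its own males and, across regimes, to the males carrying its number (M1 with P1, for example), and whole flies were frozen 6 h later. This gave 4 groups of 8 arrays, monogamous females with monogamous-line or promiscuous-line males and promiscuous females with monogamous-line or promiscuous-line males. Each of the 16 crosses had 2 arrays, 1 in each of the 2 batches named by the labels, so that a batch difference within a cross is also a difference between its replicate arrays.

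The values are log2 RMA intensities of 32 Affymetrix arrays, with array medians from 5.41 to 5.5. The median correlation of an array with the others lay between 0.994 and 0.996, so no array stood apart. The mean over the 3 female yolk protein genes was 14.52 to 14.63 in the populations. The mean over 6 testis and sperm genes stayed between 3.75 and 3.85 with 5 of 6 probe sets dim, and that over 4 male accessory gland genes between 3.57 and 3.67 with 3 of 4 dim. In whole flies, fewer cells of a type and less RNA per cell cannot be told apart.

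Most P450 genes differed in level among the female populations. A limma F-test among the 8 populations called 51 of the 83 probe sets at an adjusted p under 0.05, which is 61.4%, while it called 20.6% of all probe sets. Among the 4 monogamous populations 37 were called, against 13.5% of all probe sets, and among the 4 promiscuous populations 35, against 9.88%. The count among the monogamous populations was 26 without M2, and that among the promiscuous populations was 21 without P3. There were 23 P450 probe sets called within both regimes, 14 within the monogamous regime alone and 12 within the promiscuous regime alone, and whether the regimes differed in this was not tested. The labels call the 2 arrays of a cross biological replicates, and the test sets populations against the spread among the 4 arrays of a population, so it says that these populations differed and not which regime they came from.

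The differences were wide in some P450 genes and slight in others. The range of a probe set, its highest minus its lowest population mean, had a median of 0.43 on the log2 scale over the 83 and of 0.21 over all probe sets. It exceeded 1, a 2-fold difference, for 13 of the 83 (15.7%) against 2.45% of all, and it exceeded 2 for 4 of the 83 (4.82%) against 0.474% of all. After male regime and batch, limma's estimate of the standard deviation among arrays of 1 population had a median of 0.14 for the 83. Over all probe sets this median was 0.12. Limma draws each estimate toward the trend with intensity over all probe sets, so these are not plain standard deviations of arrays. Outside the dimmest 40% the share called was 69% of 71 P450 probe sets against 31.6% of all such probe sets, and within it 2 of 12 were called, against 4.05%. Of the total sum of squares of a P450 probe set, a median of 42.73% lay among populations within a regime, 4.77% between the female regimes, 0.68% between the male regimes and 1.57% between the batches, where the medians over all probe sets were 23.47%, 2.38%, 1.63% and 4.83%.

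**Figure D1:**
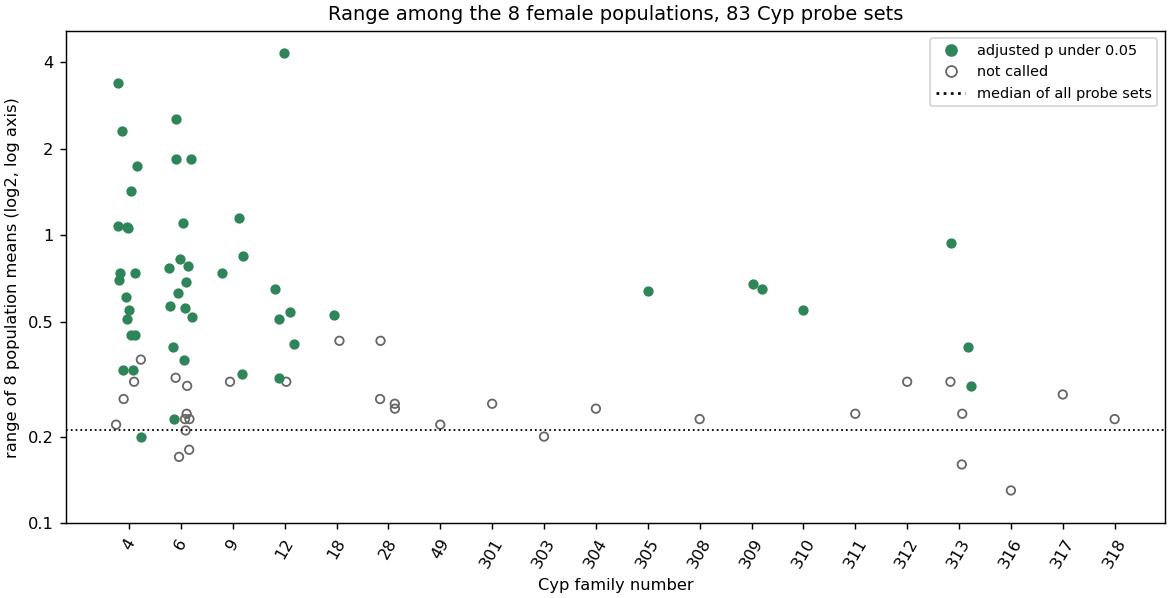
Range of the 8 population means (log2, on a log axis) for each of the 83 P450 probe sets, placed by Cyp family number with sideways jitter. Filled points were called among the 8 populations at an adjusted p under 0.05, open points were not, and the dotted line is the median range of all probe sets, 0.21. The tallest points lie in families 12, 4 and 6.

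Families 4, 6, 9 and 12 held most of the calls and also most of the probe sets. The shares to set beside their counts are 61.4% of the 83 and 20.6% of all probe sets. Family 4, the largest of clan 4, had 18 of 22 probe sets called with a median range of 0.58, and family 6, the largest of clan 3, had 15 of 23 with a median range of 0.52. Family 12, which is mitochondrial, had 6 of 7 called (median range 0.51) and family 9 had 4 of 5 (0.74). Cyp309a1, Cyp309a2, Cyp305a1 and Cyp310a1, alone or paired in their families, were called too, with ranges of 0.55 to 0.68. Of the Cyp313 genes, 3 of 6 were called, with a median range of 0.30. None of the 4 probe sets of family 28 was called, with ranges of 0.25 to 0.43, nor was the single member of Cyp49, Cyp301, Cyp303, Cyp304, Cyp308, Cyp311, Cyp312, Cyp316, Cyp317 or Cyp318. Those of Cyp301, Cyp303, Cyp304, Cyp308, Cyp311 and Cyp316 lay among the dimmest 40%, where 4.05% of all probe sets were called. In families 4, 6, 9 and 12 only 1 probe set, of family 4, was that dim, so for the dim members signal level and family cannot be told apart. Outside the dimmest 40%, members of the other families went both ways. Cyp305a1, Cyp309a1 and Cyp309a2 were called, and those of Cyp49, Cyp312, Cyp317 and Cyp318 were not. By clan, the counts were 21 of 32 in clan 4, 22 of 37 in clan 3, 6 of 9 in the mitochondrial clan and 2 of 5 in clan 2. By chromosome arm, 23 of 33 were called on 2R, where 731 of all 2718 single-gene probe sets were, and 7 of 13 on 2L, against 639 of 2433. On 3L 4 of 6 were called, against 663 of 2638, on 3R 10 of 16, against 769 of 3367, and on X 7 of 15, against 502 of 2179. No test was made between families or arms.

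Cyp12d1-d, a mitochondrial P450 linked to resistance against DDT, had the widest range of the 83 probe sets. Its 4 arrays lay between 8.27 and 8.76 in M1, between 5.73 and 6.43 in M2, between 3.34 and 5.34 in M3 and between 6.00 and 7.24 in M4. In the promiscuous populations they lay between 8.25 and 9.15 in P1, between 7.84 and 8.79 in P2, between 3.90 and 6.39 in P3 and between 8.46 and 8.61 in P4. M3 and P3 were thus low, M2 and M4 stood in the middle, and M1, P1, P2 and P4 were high with overlapping arrays. The population means spanned 4.29, from 4.29 ± 0.82 (SD, n = 4 arrays) in M3 to 8.58 ± 0.39 in P1 (adjusted p 1.02e-10, limma F-test among 8 populations). The mean of M3 lies below 4.54, the limit of the dimmest 40%, so no fold is given against it. Without P3 the promiscuous populations spanned 0.38 and were not called (adjusted p 0.724), and without M1 the range of the monogamous populations was 2.23 in place of 4.24.

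Cyp12d1 exists as near-identical neighbouring copies, Cyp12d1-d and Cyp12d1-p, and a probe set assigned to both, which is not a member, spanned 1.75. Its population means were 8.18 in M1, 6.43 in M2, 6.48 in M3, 7.39 in M4, 8.17 in P1, 7.94 in P2, 6.55 in P3 and 8.02 in P4. M1, P1, P2 and P4 were again the 4 highest populations and M3 and P3 were again low, while M2, a middle population for Cyp12d1-d, was here as low as M3. Near-identical copies can share probes, so the values of either copy are uncertain.

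Cyp4d21, known as sxe1 and expressed in the male head, where it bears on courtship, ranged over 3.38. In M3 its arrays read 3.64, 3.83, 3.82 and 4.03, and in P3 they read 3.84, 4.15, 3.88 and 3.97. The other 6 populations had means of 5.63 in M1, 5.75 in M2, 6.15 in M4, 6.93 in P1, 7.21 in P2 and 5.44 in P4, and none of their arrays fell below 4.63. M3 and P3 therefore lay apart from every other population, and in both the probe set was below the limit of the dimmest 40%. The F-test among the 8 populations called it (adjusted p 1.88e-09), and no fold is given against levels below that limit. Without M3 the monogamous populations spanned 0.52 and were not called (adjusted p 0.56), and without P3 the promiscuous range was 1.78 in place of 3.25.

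Cyp6g1, whose overexpression gives resistance to DDT and neonicotinoids, was high in 1 population. Its 4 arrays in M3 read 11.28 and 10.98 with monogamous-line males and 11.10 and 10.88 with promiscuous-line males. The other 28 arrays lay between 8.26 in P2 and 9.54 in M4, so M3 did not overlap any other population. The mean of M3 was 11.06 ± 0.17 (SD, n = 4 arrays), which was 5.81 times the lowest, 8.52 ± 0.24 in P2 (adjusted p 4.02e-13). Without M3 the range fell to 0.63, still called among 7 populations (adjusted p 0.004), and the other monogamous populations spanned 0.24 and were not called (adjusted p 0.485).

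Cyp4e3, a family 4 gene of the Malpighian tubule, was high in P4. The arrays of P4 read 10.07 in batch 1 and 8.94 in batch 2 with monogamous-line males, and 9.84 in batch 1 and 7.92 in batch 2 with promiscuous-line males. All other arrays lay between 6.62 and 7.74, so P4 did not overlap them, although its own spread was 0.98 (SD, n = 4 arrays). The mean of P4, 9.19, was 4.97 times that of M3, 6.88 (adjusted p 1.49e-06). The range was 3.06 in batch 1 alone (adjusted p 2.62e-06) and 1.62 in batch 2 alone (adjusted p 0.0585). Without P4 the other 7 populations spanned 0.50 and were not called (adjusted p 0.324), and the other promiscuous populations spanned 0.17 (adjusted p 0.835).

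**Figure D2:**
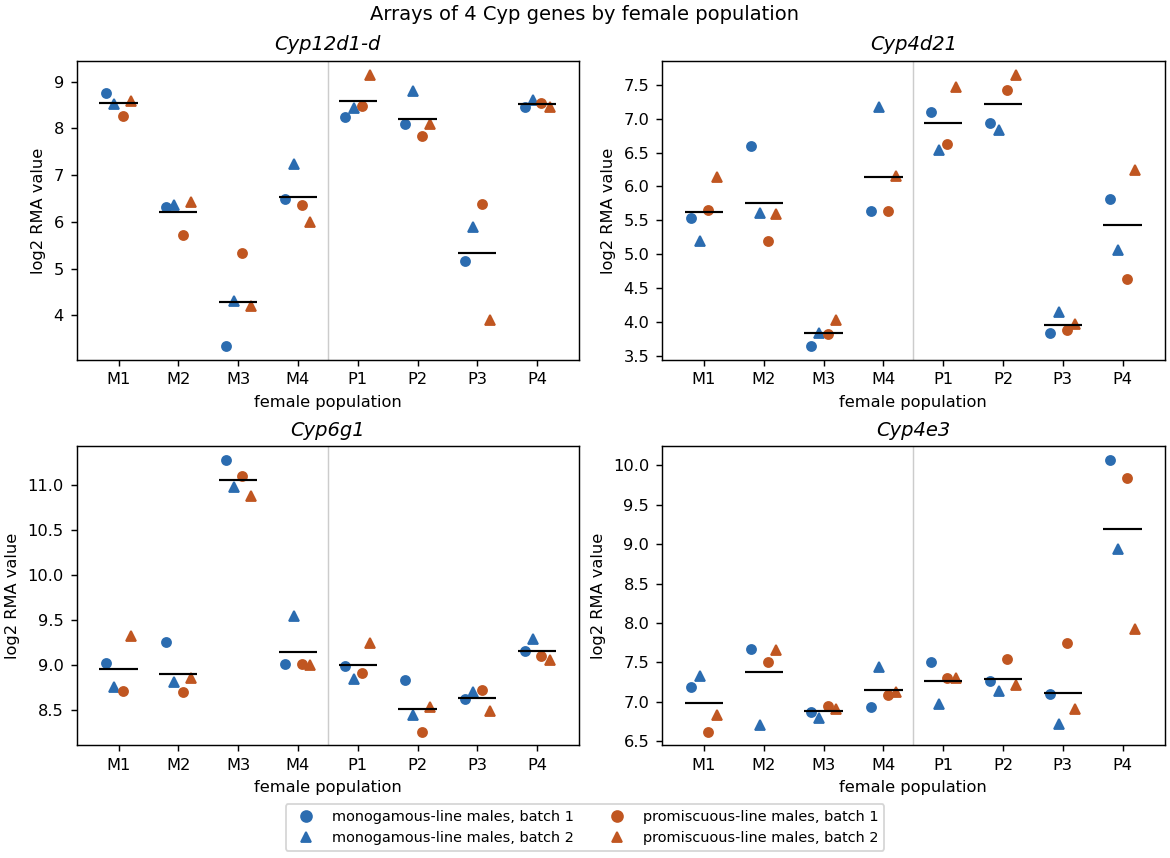
Log2 RMA values of the 32 arrays for Cyp12d1-d, Cyp4d21, Cyp6g1 and Cyp4e3, by female population. Blue marks monogamous-line males and orange promiscuous-line males, circles are batch 1 and triangles batch 2, and each bar is the mean of the 4 arrays of a population. Cyp12d1-d and Cyp4d21 are lowest in M3 and P3, Cyp6g1 is high in M3 only among these populations (11.06) and Cyp4e3 is high in P4 (9.19).

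Cyp6w1 and Cyp6a2, which have been linked to DDT resistance and are inducible by foreign compounds, followed an order close to that of Cyp12d1-d. Cyp6a2 had its arrays at 7.50 to 7.80 in M1, 6.47 to 6.84 in M2, 5.87 to 6.28 in M3 and 7.18 to 7.49 in M4. In the promiscuous populations they were at 7.71 to 8.30 in P1, 7.08 to 7.65 in P2, 6.25 to 6.57 in P3 and 7.67 to 7.98 in P4. M2, M3 and P3 lay below every array of the other 5 populations, and the highest mean was 3.57 times the lowest (adjusted p 9.08e-13). Cyp6w1 had population means of 7.56 in M1, 5.98 in M2, 5.84 in M3, 7.03 in M4, 7.68 in P1, 6.94 in P2, 5.87 in P3 and 7.65 in P4. Here too no array of M2, M3 or P3, with a highest of 6.30, reached the lowest array of the other 5 populations, 6.67 in M4, and the highest mean was 3.59 times the lowest (adjusted p 7.03e-13).

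The shared order was noticed after the values had been seen. The genes in which it was seen are in the counts that follow, so these describe the order and do not test it. M2, M3 and P3 had the 3 lowest means in 7 of the 51 P450 probe sets called, which is 13.7%, against 3.24% of all probe sets called. The 7 were Cyp12d1-d, Cyp6w1, Cyp6a2, Cyp6a14, Cyp6a13, Cyp6a9 and Cyp4p3. In Cyp12d1-d, Cyp6w1, Cyp6a2 and Cyp6a14 the 3 highest means were those of M1, P1 and P4 as well, 7.84% of those called against 0.751% of all probe sets called. Marker genes of the tissues that express P450s were read beside these genes. The list means of M2, M3 and P3 were 7.38, 7.27 and 7.39 for the Malpighian tubule and 7.34 to 7.62 in the other 5 populations, with 1 of 4 tubule probe sets called. The tubule gene called was Irk3, a potassium channel gene, at 7.41, 6.98 and 7.47 in M2, M3 and P3, 7.16 in M4, 7.62 in P2 and 7.88, 8.13 and 8.24 in M1, P1 and P4 (adjusted p 2.52e-10), so it was high in the same 3 populations. Of the tubule genes not called, Irk2 was highest in P4 at 7.79 and lowest in P3 at 7.59. ZnT35C ran from 9.15 in M3 to 9.29 in P3, and NaPi-T from 5.11 in P1 to 5.34 in M4. For the midgut the list means of M2, M3 and P3 were 12.83, 12.89 and 12.91, against 12.79 to 13.02, with 5 of 6 probe sets called. Among them the protease gene Jon65Aiii was also highest in M1, P1 and P4, at 13.56, 13.57 and 13.52, with 13.48 in M2, 13.15 in M3, 13.20 in M4, 13.39 in P2 and 13.23 in P3 (adjusted p 1.34e-05). The other called midgut genes had other orders. By contrast, alphaTry was lowest in M1 and P4, at 13.62 and 13.65, and highest in M3 at 13.90, and betaTry ran from 13.59 in M1 to 13.86 in M3. Jon25Biii was highest in M1 and P4 at 14.01 and lowest in M4 at 13.60. Jon99Ci ran from 11.16 in M2 to 12.31 in P4. For the fat body the list means were 14.08, 14.10 and 14.09 in M2, M3 and P3, against 13.93 to 14.21, with 4 of 5 called. The part of tissue composition in the P450 pattern was not tested.

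Regulators of detoxification genes and electron-transfer partners were read against the 20.6% of all probe sets called among the 8 populations. The transcription factor gene cnc had ranges of 0.15 and 0.16 at its pair of probe sets, its inhibitor Keap1 0.17 and the nuclear receptor Hr96 0.07, and none of these was called. Among the 7 regulator probe sets 2 were called, maf-S, which encodes the partner of Cnc, with a range of 0.22 (adjusted p 0.00483), and tgo, which encodes the partner of Spineless, with 0.16 (adjusted p 0.0463). Of the 4 probe sets for electron-transfer partners 2 were called, Cyt-b5-r with a range of 0.62 (adjusted p 2e-04) and the ferredoxin gene Fdx1 with 0.22 (adjusted p 0.0209). Probe sets for Cpr and dare, the 2 reductases on that list, were not matched by symbol.

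Other P450 genes with wide ranges each had their own high or low populations. Cyp4d20 spanned 1.08, from 5.4 in M1 to 6.48 in P3, and Cyp4aa1 spanned 1.06, from 5.60 in P3 to 6.66 in P4. Cyp4d14 spanned 1.07, from 7.23 in M4 to 8.29 in M3, and without M4 its range was 0.54 and it was not called (adjusted p 0.08). Cyp313a1 spanned 0.94, from 7.23 in P4 to 8.17 in M3 (adjusted p 0.0159), and without P4 it spanned 0.57 (adjusted p 0.302). In batch 2 alone it spanned 0.69 with an adjusted p of 0.554. Of the 15 called members with the widest ranges, those of 0.85 or more, 10 lie on 2R. So do 33 of the 83 and 2718 of all 13647 single-gene probe sets. Family 4 holds 7 of the 15 and 22 of the 83, and family 6 holds 4 of the 15 and 23 of the 83. The next member called, Cyp6a13, spanned 0.83. Within the 4 monogamous populations 13 of the 15 were called, beside 37 of the 83 and 13.5% of all probe sets. Within the 4 promiscuous populations 14 were called, beside 35 of the 83 and 9.88% of all, and within both 12. The 15 were picked as called with wide ranges on these same arrays, so high counts follow in part from that choice.

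**Figure D3:**
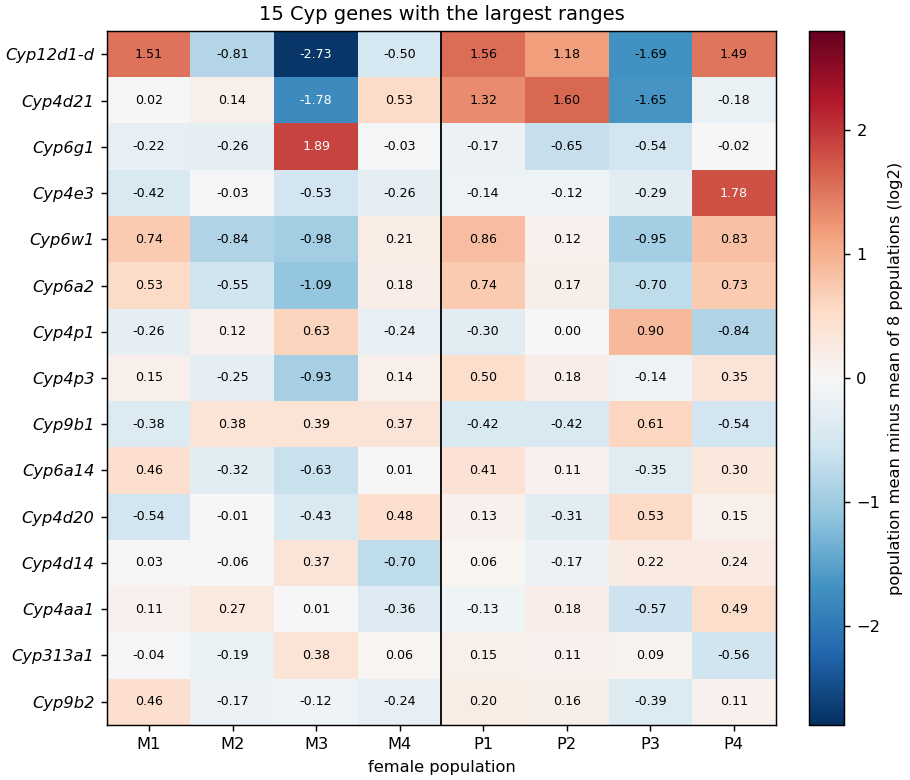
Population mean minus the mean of the 8 populations (log2) for the 15 called P450 genes with the widest ranges, 1 row per gene and 1 column per female population, with monogamous populations left of the line. Red is above and blue below the mean. Cyp12d1-d, Cyp6w1, Cyp6a2 and Cyp6a14 are blue in M2, M3 and P3 and red in M1, P1 and P4, while Cyp6g1 is red in M3.

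Each batch alone, with fewer arrays, gave fewer calls. In batch 1 the F-test among the 8 populations called 27 P450 probe sets (32.5%) against 6.89% of all, and in batch 2 it called 30 (36.1%) against 9.53% of all, with 23 called in both. Of the 15 genes with the widest ranges, which had been picked as called on these same arrays, 15 were called in batch 1 and 13 in batch 2, the exceptions being Cyp4e3 and Cyp313a1. With the 2 arrays of each cross averaged first, 44 P450 probe sets were called, against 19% of all.

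Neighbouring P450 genes did not always move together. Cyp6g1 stands next to Cyp6g2 and Cyp6t3 on 2R, and while Cyp6g1 spanned 2.54, Cyp6g2 spanned 0.32 (adjusted p 0.316) and Cyp6t3 0.23 (adjusted p 0.151), neither of which was called. The population means of Cyp6g2 were 5.28 in M3 and 5.05 to 5.37 elsewhere, and those of Cyp6t3 were 4.85 in M3 and 4.62 to 4.83 elsewhere. The level of M3 thus stood apart for Cyp6g1, while no difference among populations was detectable at its P450 neighbours. The nearest other genes, SmF and CG8858, spanned 0.08 and 0.15 and were not called either.

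In the run of Cyp4p2, Cyp4p1 and Cyp4p3 all were called, with ranges of 0.74 to 1.74. Cyp4p1 had its arrays at 8.94 to 9.12 in P3 and 8.62 to 8.81 in M3, above all other arrays of P1, P4, M1, M2, M4 and P2, whose highest was 8.44. Its arrays in P4 were at 7.05 to 7.53. Cyp4p2 also had its highest means in M3 and P3, at 7.22 and 6.91. Cyp4p3 ran the other way in M3, with arrays at 6.01 to 6.68 and the lowest mean, 6.23, and it was highest in P1 at 7.66. Without M3, Cyp4p3 spanned 0.75 and was still called (adjusted p 6.92e-05).

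Cyp9b1 and Cyp9b2, also neighbours on 2R, moved in opposite directions. Cyp9b1 had a mean of 5.09 in M1 against 5.83 to 5.86 in the other monogamous populations, and of 6.08 in P3 against 4.93 to 5.05 in the other promiscuous populations. Cyp9b2 had a mean of 9.87 in M1 against 9.17 to 9.29, and of 9.02 in P3 against 9.52 to 9.61. M1 was the low monogamous population for the one and the high one for the other, and P3 the reverse among the promiscuous ones, with no overlap of arrays between M1 and M2 to M4 in either gene. The F-test among the 8 populations called both (adjusted p 2.52e-07 for Cyp9b1 and 2.29e-07 for Cyp9b2). A neighbouring gene that is not a P450, the serpin gene Spn43Aa, spanned 1.5 and was highest in P1 and lowest in P3 (adjusted p 1.83e-08).

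Cyp6a14 and Cyp6a13 both had their 3 lowest means in M3, M2 and P3, with means of 5.53 and 7.40 in M3, 5.83 and 7.50 in M2, and 5.81 and 7.55 in P3. In the longest run, 8 Cyp6a genes with Cyp317a1, 5 of 9 were called and the ranges went from 0.18 to 0.78. Beside the 13 genes with ranges over 1, 25 probe sets of the nearest genes outside the P450 family were measured. Of these 7 were called and 2 spanned more than 1, against 20.6% and 2.45% of all probe sets. The 2 were Spn43Aa and CG8299, the latter beside Cyp4aa1 with a range of 1.08.

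**Figure D4:**
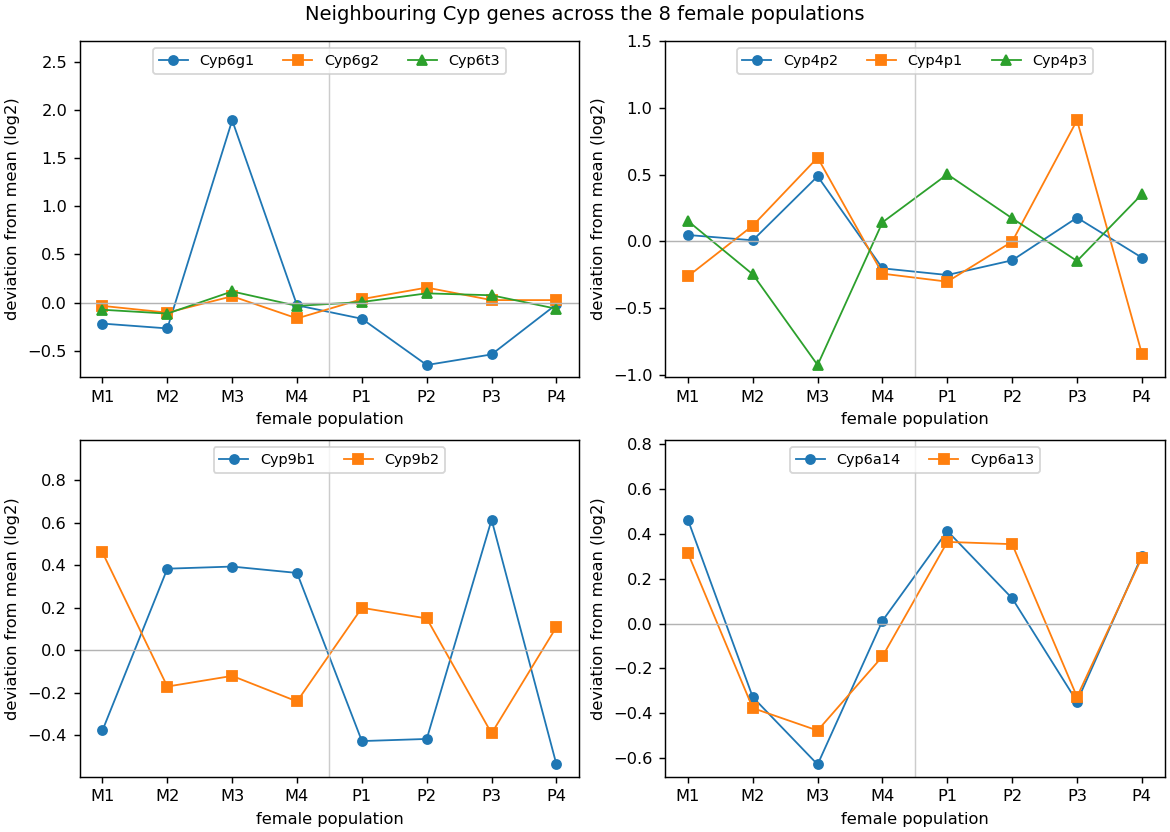
Deviation of each population mean from the mean of the 8 populations (log2) for 4 runs of neighbouring P450 genes, with 1 line per gene joining the 8 female populations. Cyp6g1 rises in M3 by 1.89 while Cyp6g2 and Cyp6t3 stay near 0. In M3 Cyp4p1 and Cyp4p2 lie above their means and Cyp4p3 below. Cyp9b1 and Cyp9b2 go opposite ways in M1 and P3, and Cyp6a14 and Cyp6a13 run side by side.

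By known role, 7 of the 10 members listed for insecticide or foreign-compound metabolism, none of them dim, were called among the 8 populations. That is close to the 69% called of all P450 probe sets outside the dimmest 40%, against 61.4% of the 83 and 20.6% of all probe sets. The 7 included Cyp12d1-d, Cyp6g1, Cyp6w1 and Cyp6a2. The others called were Cyp12a4, whose overexpression gives resistance to lufenuron, with a range of 0.54 (adjusted p 1.34e-06, and 0.29 without P1), Cyp6a8 with 0.57 (adjusted p 0.00121) and Cyp6d5 with 0.41 (adjusted p 0.026). The call of Cyp6d5 was lost without M1, M2 or M3 in turn, with adjusted p of 0.0501 to 0.155. Cyp6g2, Cyp6a23 and Cyp6t3 were not called.

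Cyp4g1, the oenocyte enzyme that makes cuticular hydrocarbons from aldehydes, spanned only 0.20, from 13.93 in M1 to 14.13 in P4, and was nevertheless called (adjusted p 4.01e-06). Its arrays lay at 13.85 to 13.99 in M1 and at 14.09 to 14.19 in P4, so these populations did not overlap. The list of 4 oenocyte genes, all called, had means of 10.54 in M1 and 10.62 in P4, and its lowest, 10.15, in M4, where Cyp4g1 stood at 14.12.

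Cyp18a1, which inactivates ecdysone, has a pair of probe sets. One spanned 0.53 and was called (adjusted p 0.00178), with its highest mean of 8.46 in P1, and the other spanned 0.43 with an adjusted p of 0.122 and a highest mean of 7.37, also in P1. The latter was called without M3 (adjusted p 0.0395) and on the 16 cross means (adjusted p 0.0182). Of 7 probe sets for the P450s of ecdysone synthesis, which carry other names and are not members, 2 were called, against 20.6% of all probe sets. These were phm with a range of 0.64 (adjusted p 0.00103) and 1 of the pair for shd with 0.44 (adjusted p 0.0438). Cyp6a20, which affects male aggression, spanned 0.56 (adjusted p 0.000242), while Cyp312a1 spanned 0.31 (adjusted p 0.429). Cyp301a1 and Cyp303a1, needed for adult cuticle and bristles, were both dim and not called, with ranges of 0.26 and 0.20. The cyclophilins set aside by name spanned 0.13 (Cyp40) and 0.05 (Cyp1), and neither was called.

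Between the female regimes no P450 gene was called, nor was any probe set at all (0% of all probe sets, limma on population means, 4 against 4). At an unadjusted p under 0.05 there were 3 of the 83 (3.61%) against 7.11% of all probe sets, and the smallest adjusted p was 0.586. Promiscuous females had the higher mean for 51 of the 83 and the lower for 32, with a median difference of 0.02, where 52.9% of all probe sets were higher. Population means of the regimes did not overlap for 1 of the 83 (1.2%), against 4.08% of all probe sets. That was Cyp9c1, at 7.06, 7.06, 6.94 and 7.01 in M1 to M4 and 6.90, 6.73, 6.85 and 6.87 in P1 to P4, which gave a difference of -0.18 ± 0.05 (SE, adjusted p 0.586). The next smallest p belonged to Cyp6a18 with 0.26 ± 0.10 (SE, adjusted p 0.64) and Cyp309a2 with -0.31 ± 0.12 (SE, adjusted p 0.646). Cyp311a1 differed by -0.10 ± 0.05 and Cyp305a1 by 0.26 ± 0.12, with adjusted p of 0.701 and 0.706.

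The genes with wide ranges had wide errors between the regimes, since their high and low populations lay within them. Cyp12d1-d averaged 6.39 ± 1.74 (SD, n = 4 populations) in monogamous and 7.66 ± 1.56 in promiscuous females, a difference of 1.27 ± 0.94 (SE, adjusted p 0.846). Cyp6g1 averaged 9.51 ± 1.03 against 8.82 ± 0.30, a difference of -0.69 ± 0.44 (SE, adjusted p 0.80). In Cyp12d1-d the means of the 4 groups of crosses were 6.42 ± 1.99 and 6.36 ± 1.52 (SD, n = 4 populations) for monogamous females with monogamous-line and promiscuous-line males, and 7.71 ± 1.46 and 7.61 ± 1.68 for promiscuous females. For Cyp6g1 the same 4 means were 9.58 ± 1.04, 9.45 ± 1.03, 8.86 ± 0.27 and 8.79 ± 0.34. In these 2 genes the means over 4 populations with either kind of mate lay closer together than the single populations did. Both genes were named for wide ranges among populations, so this follows in part from that choice.

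**Figure D5:**
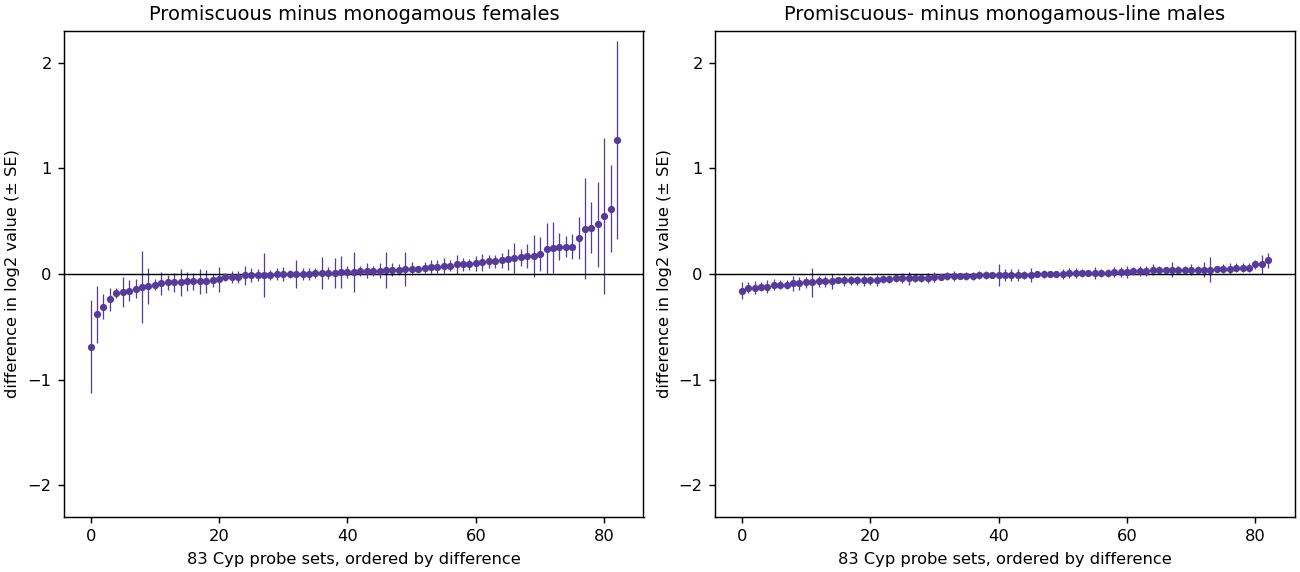
Estimated differences in log2 value with their standard errors for the 83 P450 probe sets, ordered by size. On the left promiscuous minus monogamous females (4 against 4 population means), from -0.69 to 1.27, and on the right the mean response to promiscuous-line against monogamous-line males over 8 female populations, from -0.16 to 0.13, both on the same vertical scale.

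The mean response of P450 genes to the regime of the mates was small, while the values of single populations were larger in some genes. The response was taken in each female population as the mean with promiscuous-line males minus the mean with monogamous-line males. Over the 8 populations no member was called, and no other probe set either (0%), with estimates between -0.16 and 0.13 and a smallest adjusted p of 0.37. At an unadjusted p under 0.05 there were 6 of the 83 (7.23%), against 11% of all probe sets. Cyp6d5 had responses of -0.14, -0.15, -0.09 and -0.08 in M1 to M4 and 0.09, -0.27, -0.31 and 0.02 in P1 to P4, so 6 of 8 were below 0, with a mean of -0.12 ± 0.04 (SE, adjusted p 0.37). Cyp4ac3 had 7 of 8 below 0 and a mean of -0.13 ± 0.05 (SE, adjusted p 0.394), and Cyp28a5 had 7 of 8 below 0 and a mean of -0.10 ± 0.04 (SE, adjusted p 0.394), which was 0.02 in batch 2 alone. In the genes with wide ranges the values of single populations went both ways. They were 0.95 in M3 and -0.69 in M4 for Cyp12d1-d, and -0.70 in M2 and 0.66 in P2 for Cyp4d21. Each rests on 2 arrays against 2 and was not tested by itself. With promiscuous-line males Cyp12d1-d in M3 went from 3.34 to 5.34 in batch 1, but from 4.30 to 4.20 in batch 2. Cyp4d21 in M2 went from 6.59 to 5.20 in batch 1 and from 5.61 to 5.60 in batch 2. The values of M4 and P2 had the same sign in both batches. In Cyp4e3 the response of P4 was -0.63. Cyp313a5 responded on average by -0.10 ± 0.04 and Cyp12a4 by -0.06 ± 0.03, with adjusted p of 0.425 and 0.453.

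Within each female regime the picture was alike. In monogamous females no member was called (0% of all probe sets) and 7 of 83 had an unadjusted p under 0.05 (8.43%, against 8.46% of all). The smallest p-values were those of Cyp310a1 (0.18 ± 0.06, SE), Cyp313a2 (-0.14 ± 0.05), Cyp311a1 (0.14 ± 0.05), Cyp12a5 (-0.16 ± 0.06) and Cyp6a9 (0.15 ± 0.06), with adjusted p of 0.481 to 0.552. In promiscuous females no member was called (0.00533% of all probe sets) and 6 had an unadjusted p under 0.05 (7.23%, against 10.2% of all). Here the smallest p-values were those of Cyp6a19 (0.09 ± 0.03), Cyp6a16 (-0.23 ± 0.09), Cyp6a22 (0.14 ± 0.05), the Cyp18a1 probe set called among populations (0.12 ± 0.05) and Cyp12a4 (-0.09 ± 0.04), with adjusted p of 0.405 to 0.456.

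The difference between the responses of promiscuous and monogamous females, the interaction, was called for no member (0.00533% of all probe sets), with 8 of 83 at an unadjusted p under 0.05 (9.64%, against 7.89% of all). Cyp310a1, which is dim, had responses of 0.31, 0.09, 0.16 and 0.16 in M1 to M4 and of -0.08, -0.32, -0.07 and 0.04 in P1 to P4. Its interaction was -0.28 ± 0.09 (SE, adjusted p 0.534), the smallest p of the 83. Cyp4p2 followed with 0.25 ± 0.09 (adjusted p 0.587), Cyp311a1 with -0.19 ± 0.08 (adjusted p 0.602), and Cyp313a2 with 0.17 ± 0.07 and Cyp312a1 with -0.26 ± 0.11, both at an adjusted p of 0.612. The 8 responses rest on 4 pairs of male populations.

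Between the batches 9 of the 83 were called (10.8%), against 20.2% of all probe sets. In batch 2, 2 were higher (2.41%, against 10.7% of all) and 7 lower (8.43%, against 9.49% of all). Cyp6a18 was lower in 15 of 16 crosses, by 0.26 on the log2 scale, with means of 7.85 in batch 1 and 7.59 in batch 2 (adjusted p 0.000216). Cyp12e1 at 1 of its pair of probe sets went from 5.36 to 5.10 (adjusted p 0.00193), and Cyp4d20 from 5.82 to 6.07, higher in 14 of 16 crosses (adjusted p 0.00279). Cyp4e3 had the largest mean difference, -0.33 ± 0.13 (SE, adjusted p 0.0805), which was -0.16 without P4, and Cyp4d21 differed by 0.23 ± 0.15 (SE, adjusted p 0.31).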

How the data were processed

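The arrays were deposited as log2 values that the authors made with RMA and affy, according to the submitters' processing notes (versions not given). RMA puts all arrays on 1 distribution, so a shift shared by most genes is lost. Of 18952 probe sets, the 183 controls were left out and 18769 tested. The 83 P450 probe sets were found in a RefSeq table (Release 6 plus ISO1 MT), used for names, arms and neighbours only. Array number limits the precision.

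Fits used limma 3.58.1 in R 4.3.3 (eBayes with intensity trend) over all tested probe sets, with Benjamini-Hochberg adjustment and a threshold of 0.05, and were tested on simulated data. Population differences were F-tests on 32 arrays with male regime and batch as terms. Female regime was fitted on 8 population means, male regime on 8 responses, batch on differences within 16 crosses. Named were the 15 called members with the widest ranges, the 3 widest in each regime, the 5 smallest p in each regime comparison, the 5 largest batch differences and the role lists. Members and lists were chosen with earlier results of these data known. Alternatives were normalization, trend, dim probe sets, batches, blocks and leaving out populations, arrays or numbers. A planned promoter motif count was not run, since promoter sequence was not used here.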

Additional observations from a re-analysis of the deposited data

Results flagged for a closer look

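Within a regime of 4 populations, a population mean or response was set apart when its gap to the nearest other was a larger part of the whole range than Dixon's 95% critical value. Of 98 such groups of named genes, 13 were set apart. The rate of about 1 in 20 holds for groups that were not selected. Many of these genes were named for wide ranges or small p-values in these same data, so the count cannot be read against that rate. In population means, Cyp12d1-d was low in P3 at 5.33, with the other promiscuous populations at 8.20 to 8.58, and Cyp6g1 was high in M3 at 11.06, with the other monogamous populations at 8.90 to 9.14. Cyp4e3 was high in P4 at 9.19, with the others at 7.11 to 7.29, and Cyp313a1 was low in P4 at 7.23, with the others at 7.88 to 7.94.

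The neighbours Cyp9b1 and Cyp9b2 were set apart in the same populations and in opposite directions. Cyp9b1 was low in M1 at 5.09 and high in P3 at 6.08, and Cyp9b2 was high in M1 at 9.87 and low in P3 at 9.02. Smaller gaps were those of Cyp6g2, at 5.37 in P2 with the others at 5.24 to 5.25, and of Cyp6a8, at 6.01 in M1 with the others at 5.49 to 5.53. In responses to male regime, Cyp4ac3 stood at -0.08 in M4 with the others at -0.17 to -0.16, Cyp6a19 at 0.07 in M2 with the others at -0.04 to -0.03, and a Cyp18a1 probe set at 0.12 in M1 with the others at -0.05 to -0.02.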

How the results depend on the processing

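In batch 1 alone the P450 probe sets called fell from 51 to 27 among the 8 populations, from 37 to 20 among the monogamous and from 35 to 15 among the promiscuous populations, and in batch 2 alone to 30, 19 and 22, with 16 arrays in place of 32. The median difference between female regimes was 0.02, and 0.07 in batch 1 alone. Among the named genes the mean response of Cyp28a5 changed sign, at 0.02 in batch 2 alone, and the cause was not tested. Leaving out 1 population gave 43 to 51 calls among all populations, 26 to 37 among the monogamous, 21 to 35 among the promiscuous and 7 to 10 between batches, and 0 in each comparison of regimes. The medians then ran from 0.37 to 0.43, 0.24 to 0.30, 0.21 to 0.27 and -0.01 to 0 in the same order. They ran from 0.02 to 0.04 for female regime, -0.03 to 0 for the mean response, -0.04 to 0 and -0.03 to 0.01 for the responses of monogamous and promiscuous females, and -0.02 to 0.03 for the interaction, so that the last 2 medians, -0.01 and 0.01 with all populations, crossed 0. Alternatives added after seeing the data left out 1 array (45 to 54, 34 to 38 and 28 to 37 calls, with medians of 0.41 to 0.45, 0.29 to 0.33 and 0.26 to 0.32) or both populations of a number (37 to 48, 24 to 32 and 21 to 32 calls, with medians of 0.35 to 0.41, 0.24 to 0.26 and 0.21 to 0.23). The lowest counts came without number 2 for all populations and the monogamous ones, and without number 3 for the promiscuous ones.

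Same-numbered deviations correlated at 0.13, 0.07, 0.19 and 0.02 for numbers 1 to 4 over all probe sets, and same-numbered responses at 0.17, 0.03, -0.04 and 0.01. No correlations of differently numbered populations stand beside these, so they cannot tell whether the numbers pair the populations. With the number as a replicate block, 0 P450 probe sets were called in each comparison of regimes, as without it. Without the batch term, that is with no replicate block, 45, 35 and 31 probe sets were called among all, monogamous and promiscuous populations. Over all named genes and settings, 1421 of 1454 values among the 8 populations kept their side of the threshold, 27 lost and 6 gained a call. Beyond the losses given above, Cyp18a1 (adjusted p 0.0976), Cyp6d5 (0.303) and Cyp6a8 (0.173) were not called in batch 1 alone, nor Cyp18a1 (0.218), Cyp6d5 (0.282) and Cyp6a20 (0.176) in batch 2 alone, nor Cyp6d5 without the batch term (0.0768). Signal close to background limits what can be seen in the 12 dim probe sets.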
